A study of Mus musculus with 6 samples.

Results

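Early feedback genes were followed in 6 isolated hearts of male mice: Zfp36, Gadd45b, Ier3 and Ier5, together with every dual-specificity phosphatase gene (Dusp followed by a number) in the authors' table. These 14 protein-coding genes, 4 named and 10 Dusp genes, were taken by gene name from the 8969 protein-coding genes of the table. All hearts, the controls included, were isolated and perfused by the Langendorff method, in which the coronary vessels are supplied from the aorta. Contraction was not stopped in the 3 hearts of the Sham group. The 3 hearts of the I/R group (ischaemia and reperfusion) were arrested with Tomas cardioplegia, so spelled in the labels, for 30 min and then reperfused for 1 h. The sources used here give neither strain nor age. RNA was measured after poly(A) selection as FPKM, which divides a transcript's fragments by its length and by the library's total, and summed over the transcripts listed for each gene. The ventricular muscle genes of a fixed marker list summed to between 12399 and 13423 FPKM in every library, with 16 of its 20 genes in the table. Most of this sum was Fabp3, at 8967 to 9977 FPKM, so it says little of the other genes.

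Cells that receive a stress signal switch on genes within minutes, and among these are genes whose products shut the response down again. Zfp36 encodes tristetraprolin, which binds AU-rich elements of cytokine and growth factor mRNAs and recruits the enzymes that remove their poly(A) tails. Gadd45b encodes a small stress sensor that binds kinases upstream of the stress-activated MAP kinases. Ier3 encodes an immediate-early protein that acts on ERK signalling and survival, and Ier5 encodes a nuclear protein that works with protein phosphatase 2A and with the heat shock factor HSF1. The DUSP proteins remove phosphate from threonine and tyrosine, and several of them inactivate MAP kinases.

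Zfp36 (ENSMUSG00000044786) lies on chromosome 7 from 28376784 to 28380253, Gadd45b (ENSMUSG00000015312) on chromosome 10 from 80930073 to 80932204, Ier3 (ENSMUSG00000003541) on chromosome 17 from 35821684 to 35822923 and Ier5 (ENSMUSG00000056708) on chromosome 1 from 155096361 to 155099636, in the table's coordinates, which fit GRCm38. The sequence before each RefSeq start site is shown so that the proximal promoters of these 4 early response genes can be compared. The Zfp36 stretch lies inside the table's span of that gene, which begins upstream of the RefSeq start. The stretches come from GRCm38.p6 and are written 5′ to 3′ along the gene at chr7:28379229-28379408 (minus strand), chr10:80929911-80930072 (plus), chr17:35821533-35821683 (plus) and chr1:155099637-155099816 (minus). Capitals mark matches to TATAA (the core of a TATA box), to the CArG box bound by serum response factor and to GGAATTTCC, an NF-kB type sequence.
Zfp36: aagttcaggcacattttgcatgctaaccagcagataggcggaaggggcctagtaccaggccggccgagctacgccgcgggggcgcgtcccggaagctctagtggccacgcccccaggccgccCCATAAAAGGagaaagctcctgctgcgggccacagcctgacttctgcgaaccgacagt
Gadd45b: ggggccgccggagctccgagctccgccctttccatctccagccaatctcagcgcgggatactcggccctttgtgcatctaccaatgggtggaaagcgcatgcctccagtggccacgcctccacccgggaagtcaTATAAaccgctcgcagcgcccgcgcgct
Ier3: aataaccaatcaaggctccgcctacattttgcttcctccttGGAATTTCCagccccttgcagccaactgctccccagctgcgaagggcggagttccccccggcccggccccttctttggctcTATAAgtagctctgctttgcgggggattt
Ier5: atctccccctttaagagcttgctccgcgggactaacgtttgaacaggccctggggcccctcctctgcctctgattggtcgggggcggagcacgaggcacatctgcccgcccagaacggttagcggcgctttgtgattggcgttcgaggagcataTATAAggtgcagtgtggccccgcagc
Besides Dusp13, TATAA was found in the windows of Gadd45b, Ier3 and Ier5, beginning 46, 58 and 26 bases before the RefSeq start. It was also in 24.9% of all 32851 RefSeq promoter windows of 300 bases, searched on both strands. Zfp36 had instead a CArG box, CCATAAAAGG, 58 bases before the start, a motif found in 1.63% of the windows. GGAATTTCC began 139 bases before the Ier3 start and was in 0.317% of the windows. Of the 14 members, 13 had a window. The cyclic AMP response element TGACGTCA was found in Dusp1 (1.79% of windows), TGANTCA in Dusp13 (7.81%), TTCNNNGAA in Zfp36 and Dusp14 (8.3%) and CACGTG in Gadd45b and Dusp1 (7.15%). Each was searched on both strands, and a match to letters is not a measured binding site.

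The libraries held between 7233171 and 9902397 reads behind the FPKM of protein-coding genes, as recovered from the steps of the values, and the listed protein-coding transcripts held 36.8% to 39.9% of them. How much of a gene's RNA its listed transcripts hold is therefore not known. The 10 members whose mean over the 6 hearts reached 0.5 FPKM were tested, namely the 4 named genes and 6 Dusp genes, and 4 Dusp genes were below that level. The test was limma on log2(FPKM + 1), adjusted over all 12114 genes tested, and it called 0 of them at an adjusted p under 0.05 (0%). At an unadjusted p under 0.05 there were 1023 (8.44%), and limma voom on the recovered reads gave 0 after adjustment and 1053 before. No member can therefore be said to have changed by that rule, and the values below are differences with their errors. Differences are given on the log2(FPKM + 1) scale as I/R less Sham, which makes changes of weakly expressed genes look smaller, and each group had n = 3 hearts.

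Zfp36 and Gadd45b were higher in every I/R heart than in any Sham heart, by about the same amount, whereas the ranges of Ier3 and Ier5 overlapped between the groups. This separation was thus seen in 2 of the 4 named genes, beside 8.83% of the 5041 protein-coding genes tested. The same 2 genes had an unadjusted p under 0.05 and a higher value in I/R, beside 3.43% of protein-coding genes (5.1% in either direction and 1.67% lower). The 4 genes were not equally abundant: on the FPKM scale Ier3 was far above Zfp36 and Gadd45b, and Ier5 was lowest in the mean over the 6 hearts.

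**Figure D1:**
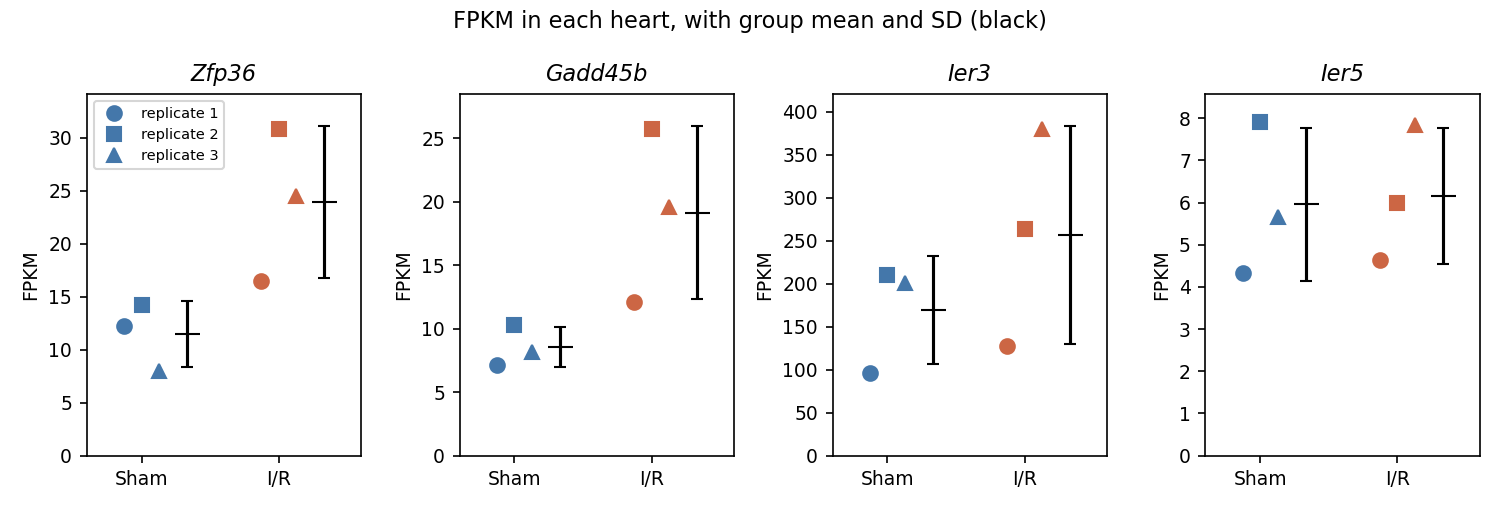
FPKM (vertical axis, linear from 0) of Zfp36, Gadd45b, Ier3 and Ier5 in each of the 3 Sham and 3 I/R hearts, with the group mean and SD in black and the replicate number as the symbol. I/R replicate 1 is the lowest I/R heart in all 4 panels, and the groups are separate for Zfp36 and Gadd45b only.

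Zfp36 stood at 12.2, 14.2 and 8.03 FPKM in Sham replicates 1, 2 and 3 and at 16.5, 30.8 and 24.5 in I/R replicates 1, 2 and 3. The lowest I/R heart lay 1.16 times above the highest Sham heart, so the separation rests on a narrow gap set by I/R replicate 1. The group means were 11.5 ± 3.15 FPKM (SD, n = 3) in Sham and 24 ± 7.15 in I/R, a difference of 0.99 ± 0.28 (SE) with a 95% interval of 0.32 to 1.66. Its unadjusted limma p was 0.0102 and its adjusted p 0.454. Only 0.575% of protein-coding genes tested, Zfp36 included, had a log2 difference at or above that of Zfp36. Differences below 0 were not counted, and Zfp36 was chosen with earlier results of these data known. Its reads numbered 781 in all Sham libraries and 1471 in all I/R libraries.

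Gadd45b was at 7.16, 10.3 and 8.18 FPKM in the Sham hearts and 12.1, 25.7 and 19.6 in the I/R hearts. As for Zfp36, I/R replicate 1 came closest to the Sham hearts, at 1.17 times the highest of them, and I/R replicate 2 was highest. The means were 8.56 ± 1.62 and 19.1 ± 6.85 FPKM, a ratio of 2.23, and the difference was 1.03 ± 0.28 (95% interval 0.35 to 1.70; limma, unadjusted p = 0.00884, adjusted p = 0.443). An exact two-sided permutation test gave p = 0.1 for Zfp36 and for Gadd45b, the smallest value that 3 hearts against 3 allow. Over the 6 hearts the log2 values of the 2 genes had a Pearson correlation of 0.94, a description that contains the group difference itself.

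Ier3 was the most abundant of the 4, above 98.9% of the table's protein-coding genes by mean FPKM, and differed most between hearts of the same group. It was at 96.6, 210.1 and 201 FPKM in Sham and 127, 263 and 379.6 in I/R, with 5014 and 7113 reads in all. Replicate 1 was the lowest heart of both groups, and I/R replicate 1 lay below Sham replicates 2 and 3. The highest I/R heart had 3 times the value of the lowest, beside 1.86 times for Zfp36. The means were 169 ± 62.9 and 257 ± 127 FPKM and the difference 0.54 ± 0.45 (95% interval −0.53 to 1.62; limma, adjusted p = 0.803). Without Sham replicate 1 the difference was 0.18 and without I/R replicate 3 it was 0.19, whereas without I/R replicate 1 it was 0.98.

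Markers of atrial muscle also varied between hearts of the same group, and not all in the order of Ier3. Nppa, the atrial natriuretic peptide gene, was at 329, 672 and 468 FPKM in Sham and 465, 583 and 811 in I/R, so that it too was lowest in replicate 1 and highest in Sham replicate 2 and I/R replicate 3. The 6 of 8 atrial markers in the table summed to 330.3, 722 and 596 FPKM in Sham and 466, 954 and 822 in I/R, lowest in replicate 1 of each group but highest in I/R replicate 2. Myl7, the atrial myosin light chain, was at 0.342, 43.2 and 115 FPKM in Sham and 0.22, 326 and 10.4 in I/R. Like Ier3 it was lowest in replicate 1 of each group, but it peaked in other hearts than Ier3 did. The part of these markers in the Ier3 result was not tested, and in such tissue RNA a change in the number of cells of a type and a change in RNA per cell cannot be told apart.

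Ier5 showed the smallest difference of the 4, with 4.32, 7.91 and 5.65 FPKM in Sham and 4.64, 6 and 7.84 in I/R. Both the highest and the lowest value came from Sham hearts, so the I/R range lay inside the Sham range. The means were 5.96 ± 1.82 and 6.16 ± 1.6 FPKM and the difference 0.05 ± 0.27 (95% interval −0.58 to 0.68; limma, adjusted p = 0.98). Leaving out Sham replicate 1 turned the sign (−0.13), as did leaving out I/R replicate 3 (−0.11). The interval leaves room for differences of either sign that are smaller than the one measured for Zfp36. The log2 values of Ier5 over hearts were more correlated with those of Ier3 (Pearson r = 0.85, 6 hearts) than of Zfp36 (0.33) or Gadd45b (0.44), as a description.

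The table listed 2 transcripts of Zfp36 and 1 each of Gadd45b, Ier3 and Ier5. ENSMUST00000209061 carried 95.5% of the Zfp36 reads and was at 11.8, 13.8 and 7.68 FPKM in Sham and 16, 29.7 and 23 in I/R. ENSMUST00000051241 had 11, 11 and 7 reads in Sham and 11, 27 and 34 in I/R. Both transcripts were thus higher in each I/R heart than in any Sham heart on the FPKM scale, with I/R means 2.07 and 2.74 times those of Sham.

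A lncRNA, Gm44710 (ENSMUSG00000109455), is annotated on the opposite strand at chromosome 7 from 28378980 to 28392514 and shares 1274 bases with the span of Zfp36, including the promoter stretch printed above. It was at 436, 433 and 372 FPKM in Sham and 504, 888 and 611 in I/R, and like Zfp36 it was lowest in Sham replicate 3 and highest in I/R replicate 2. The difference was 0.65 ± 0.20 (limma, unadjusted p = 0.0151, adjusted p = 0.477), again with no overlap between groups, beside 7.1% of all genes tested. Reads of Gm44710 numbered 1480 (Sham) and 2288 (I/R), but lncRNA values are scaled by another total and are not comparable in level with those of Zfp36. No source used here gives the strand setting of the counting, so reads where the 2 genes overlap cannot be told apart.

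**Figure D2:**
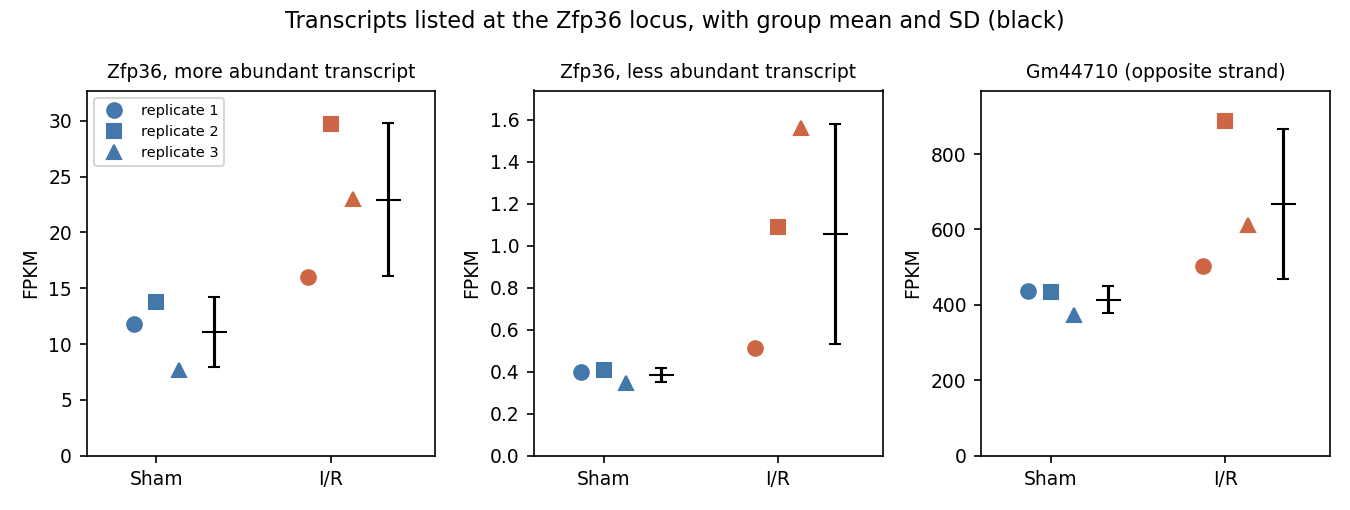
FPKM (vertical axes, linear from 0, with a scale of their own in each panel) of both Zfp36 transcripts and of the lncRNA Gm44710 in each heart, with the group mean and SD in black. All 3 are higher in every I/R heart than in any Sham heart, with I/R replicate 1 closest to the Sham hearts.

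Of the 8 close relatives of the 4 genes that were looked for, Zfp36l1, Gadd45a, Gadd45g and Ier5l were in the table. Zfp36l1 encodes a second CCCH zinc finger protein that promotes mRNA decay. It was more abundant than Zfp36, at 34.3, 41.5 and 40.8 FPKM in Sham and 51.6, 69.2 and 60.8 in I/R, and the groups did not overlap. Its difference of 0.62 ± 0.15 had the smallest p of any member or relative (limma, unadjusted p = 0.00398, adjusted p = 0.386). Ier5l, which encodes a protein like IER5, was at 11, 18 and 15.2 FPKM in Sham and 18.1, 29 and 25.9 in I/R (0.69 ± 0.24; limma, adjusted p = 0.513). The groups of Ier5l did not overlap, with a narrow gap, and those of Ier5 did. The difference between these genes was not tested.

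Of the other GADD45 genes, Gadd45g, at 1.13, 1.74 and 0.645 FPKM in Sham and 1.7, 2.41 and 3.82 in I/R, differed by 0.74 ± 0.30 on few reads (35 and 69; limma, unadjusted p = 0.046, adjusted p = 0.587). The ranges overlapped, and the value was 0.30 with a pseudocount of 5 and 1.13 with a pseudocount of 0.1. Gadd45a, the family member induced by DNA damage, was at 2.64, 3.73 and 2.71 FPKM in Sham and 4.89, 2.76 and 2.3 in I/R (0.06 ± 0.27). Its highest value was in I/R replicate 1, the heart in which Zfp36, Gadd45b and Ier3 were lowest within I/R, and without that heart the difference was −0.18.

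**Figure D3:**
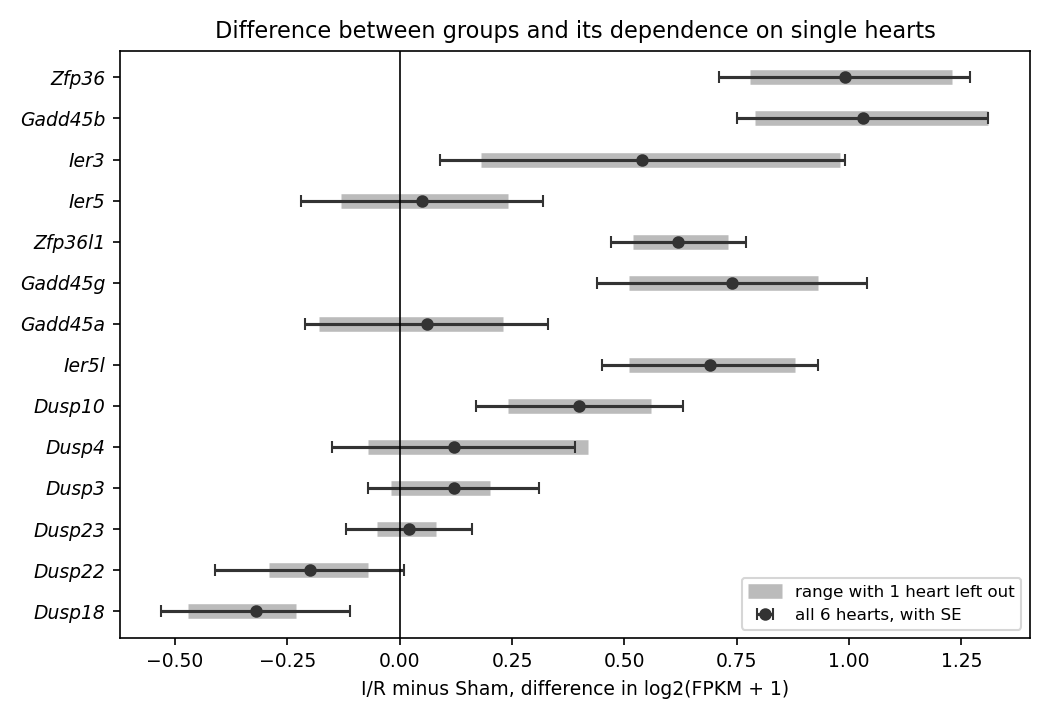
Difference between I/R and Sham in log2(FPKM + 1) (horizontal axis) for the 4 named genes, their 4 listed relatives and the 6 Dusp genes tested. Points with bars are the values over 6 hearts ± SE, and grey bands span the values with each heart left out in turn, which stay above 0 for Zfp36 (0.78 to 1.23) and Gadd45b (0.79 to 1.31) and cross 0 for Ier5.

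The 6 dual-specificity phosphatase genes tested had overlapping groups and small differences. RefSeq names 24 protein-coding Dusp genes, of which the table held 10, and the ERK phosphatase genes Dusp5 and Dusp6 were among those not analysed here. Of the 6 tested, 4 had a difference above 0 and 2 below, beside 54.9% of protein-coding genes above 0, with a median of 0.07 beside 0.02 over all protein-coding genes. In 0 of the 6 did the I/R hearts lie all above the Sham hearts, beside 8.83% of protein-coding genes, and 0 had an unadjusted p under 0.05 (limma, smallest 0.122), beside 5.1%. With 6 genes, counts of 0 are near those background shares and do not set the Dusp genes apart.

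Dusp10, whose product acts on the stress-activated MAP kinases, had the largest difference of the 6. It was at 10.2, 8.28 and 6.83 FPKM in Sham and 8.9, 14.6 and 11.2 in I/R, with only I/R replicate 1 inside the Sham range. The difference was 0.40 ± 0.23 (95% interval −0.14 to 0.95; limma, adjusted p = 0.69). It was 0.24 without I/R replicate 2 and 0.56 without I/R replicate 1, where the unadjusted p was 0.0493. Dusp4, which encodes a nuclear phosphatase of ERK, was at 7.11, 8.02 and 15 FPKM in Sham and 9.78, 10.1 and 11.7 in I/R (0.12 ± 0.27). Sham replicate 3 was above all other hearts for this gene, and without it the difference was 0.42 (limma, unadjusted p = 0.0624), whereas it was −0.07 without Sham replicate 1.

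Dusp23, encoding a small phosphatase, had the smallest difference of the members, and was at 16.8, 18 and 19.2 FPKM in Sham and 16.9, 17.8 and 20.4 in I/R (0.02 ± 0.14, 95% interval −0.30 to 0.35). Dusp3, the gene of the small phosphatase VHR, was at 9, 6.62 and 9.41 FPKM in Sham and 10.3, 8.44 and 8.53 in I/R (0.12 ± 0.19), as the sum of a transcript with 59.6% and another with 40.4% of its reads. An opposite-strand lncRNA lies within its span, and shared reads cannot be told apart. The 2 members below 0 were low in level. Dusp18 was at 2.86, 2.78 and 1.79 FPKM in Sham and 1.85, 1.67 and 1.77 in I/R (−0.32 ± 0.21, adjusted p = 0.741 in limma), and Dusp22 had a mean of 1.66 ± 0.153 in Sham and 1.33 ± 0.357 in I/R (−0.20 ± 0.21). For Dusp18 all I/R hearts were below Sham replicates 1 and 2, with Sham replicate 3 among them.

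Dusp1, Dusp7, Dusp13 and Dusp14 were below the level tested and had very few reads. The listed Dusp1 transcript (ENSMUST00000025025), of the gene for the phosphatase MKP-1, was at 0 in all Sham hearts and had at least 1 and 2 reads in I/R replicates 1 and 3. Dusp14 was also listed at 0 in every Sham heart and had 1, 1 and 6 reads in the I/R hearts, so its groups did not overlap. Dusp7 ran the other way with 6, 1 and 4 reads in Sham and 2, 0 and 0 in I/R, and for Dusp13 3 reads were from Sham and 1 was from I/R. No fold is given for these genes, since the counts are too few and their other transcripts were not analysed here.

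**Figure D4:**
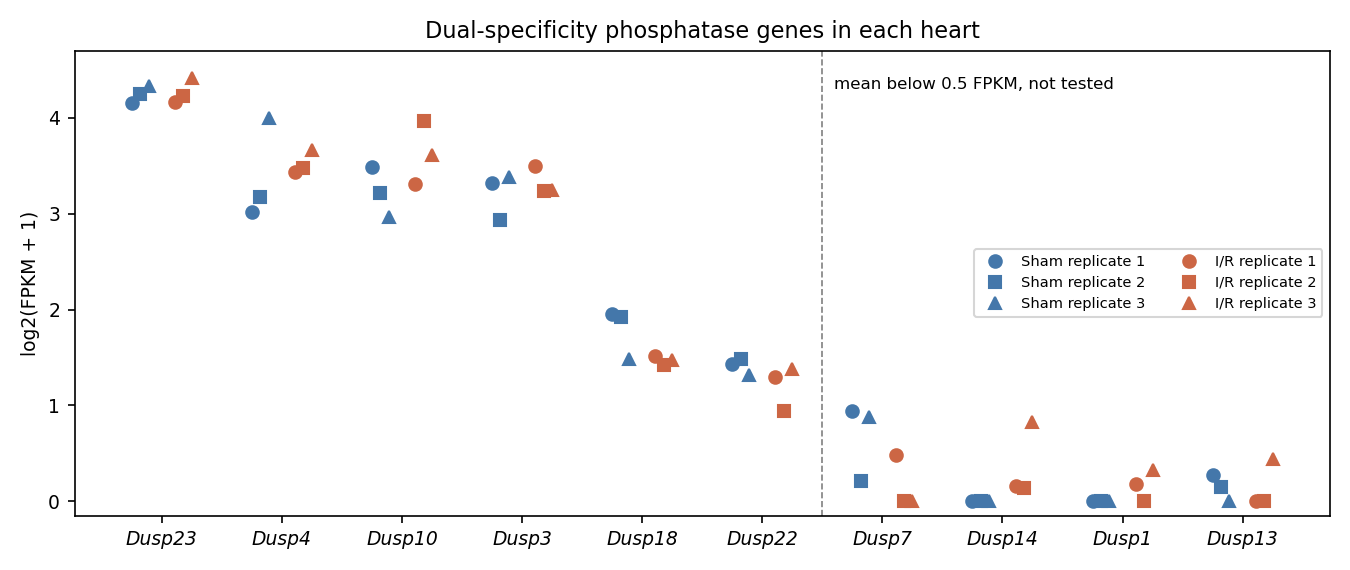
log2(FPKM + 1) (vertical axis) of the 10 listed Dusp genes in each heart, ordered by level, with genes right of the dashed line not tested. Sham and I/R values are mixed for the 6 genes on the left, and the 4 on the right are near 0.

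The mRNAs on which tristetraprolin acts were examined through a list of 25 textbook targets, which includes Zfp36 and Ier3 themselves. Of its genes 14 were in the table and 9 were tested, and all 9 had a difference above 0, beside 54.9% of protein-coding genes, with a median of 1.09 beside 0.02. In 3 of the 9 (Myc, Zfp36 and Il10) all I/R hearts lay above all Sham hearts, beside 8.83% of protein-coding genes. Together with Ccl3 and Il6, 5 of the 9 were higher with an unadjusted p under 0.05, beside 3.43%. None passed the adjustment (limma, smallest adjusted p = 0.386). Myc, a growth-promoting transcription factor, was at 3.71, 4.08 and 2.9 FPKM in Sham and 6.48, 13 and 11.7 in I/R (1.28 ± 0.28). Il10, an anti-inflammatory cytokine, had a mean of 0.714 ± 0.149 FPKM on 25 reads in Sham and of 2.88 ± 1.75 on 95 reads in I/R (1.09 ± 0.32). The chemokine gene Ccl3 was at 16.1, 29.4 and 15.5 FPKM in Sham and 25.5, 70.6 and 54 in I/R (1.20 ± 0.41), so that I/R replicate 1 lay within the Sham range. In Myc, Il10, Ccl3 and Il6, as in Zfp36, I/R replicate 1 was the lowest of the I/R hearts. Il1b, also tested, was instead lowest in I/R replicate 3, at 7.25 FPKM beside 12.4 in I/R replicate 1.

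Of 42 genes of the machinery that carries out such decay, 13 were in the table and 7 tested. Of these 6 were above 0 and 1 below, with a median difference of 0.07, and the contrast with the targets was not tested. Btg1, an antiproliferative protein that binds the CCR4-NOT deadenylase, was at 5.59, 5.9 and 4.14 FPKM in Sham and 8.76, 11.9 and 9.56 in I/R (0.84 ± 0.20; limma, unadjusted p = 0.00431, adjusted p = 0.388) and was the only one of the 7 without overlap, beside 8.83% of protein-coding genes separated upwards. The deadenylase gene Cnot7 differed by 0.24 ± 0.21, Cnot6 by 0.10 ± 0.14 and the RNA-binding protein gene Tial1 by −0.28 ± 0.25. Tial1 had an I/R mean of 0.406 FPKM and reached the filter of 0.5 FPKM only through its Sham values.

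Genes of the MAP kinase cascade, which DUSP proteins and GADD45B act on, were as often lower as higher. Of 41 listed, 16 were in the table, 7 of the 14 tested were above 0 and 7 below, and the median was −0.02. The I/R hearts lay all above the Sham hearts in 3 of the 14, beside 8.83% of protein-coding genes, and all below in 4, beside 5.12%. The largest difference was in Map3k5, the stress-activated kinase ASK1, with 16.6, 15.3 and 12.8 FPKM in Sham and 19, 53.3 and 38.4 in I/R (1.15 ± 0.35; limma, unadjusted p = 0.0141, adjusted p = 0.471). Its reads numbered 1158 in Sham and 1484 in I/R, a smaller ratio than that of the FPKM, which are summed over 2 transcripts. The adaptor gene Grb2 (−0.79 ± 0.29), the JNK family kinase gene Mapk10 (−0.45 ± 0.21) and Hras (−0.36 ± 0.18) were lower in every I/R heart than in any Sham heart, on 33 and 20, 97 and 42, and 57 and 33 reads. Other inhibitors of this cascade (21 listed, 7 tested) had a median of 0.05 with 0 separated, among them Spry1 at 0.54 ± 0.30 and Il17rd at −0.51 ± 0.27. Spry1, on 31 and 71 reads, had a Sham mean of 0.396 FPKM and reached the filter of 0.5 FPKM only through its I/R values. Among 18 partners and neighbours of GADD45 in growth arrest, 4 were tested, and Cdkn1a, the cell cycle inhibitor p21, differed by 0.74 ± 0.27 with overlapping groups (limma, unadjusted p = 0.0274). Mapk14, the p38 alpha kinase gene, was lower in every I/R heart (−0.30 ± 0.18).

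Of 19 genes of protein phosphatase 2A and its regulators, with which IER proteins work, 8 were tested and had a median of 0.11, with 5 above and 3 below 0. Ppp2r5b, a regulatory subunit, differed by 0.15 ± 0.11 and Ppp2r3a, another, by −0.14 ± 0.14. Of 19 HSF1 genes and heat shock genes, 7 were tested with a median of 0.12. The small heat shock protein gene Hspb8 was at 377, 503 and 414 FPKM in Sham and 541, 534 and 536 in I/R (0.33 ± 0.11), and the cochaperone gene Dnajb4 was at 2.38, 2.34 and 3.15 and then 1.31, 1.32 and 0.905 (−0.73 ± 0.21). These 2 genes thus differed in opposite directions (limma, adjusted p = 0.515 and 0.45). They were the only ones of the 7 with an unadjusted p under 0.05, beside 5.1% of protein-coding genes. Hspb8 and the chaperone gene Hsp90aa1 (0.47 ± 0.21) were separated upwards and Dnajb4 downwards, beside 8.83% and 5.12% of protein-coding genes.

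Other feedback inhibitors are induced by stress and cytokines. Of 28 genes of cytokine and stress feedback, 13 were tested, 10 of them above 0, with a median of 0.40 and 4 separated upwards. For this and the next 2 lists the shares over all protein-coding genes were 54.9% above 0 and 8.83% separated upwards. Socs3, which blocks cytokine receptors, was at 85.4, 114 and 60.3 FPKM in Sham and 167, 368 and 312 in I/R (1.66 ± 0.34), and Rgs16, which limits G protein signalling, differed by 1.34 ± 0.26. Hes1 (0.55 ± 0.23) and Pde4b (0.53 ± 0.23) were the others. Hes1, on 16 and 37 reads, had a Sham mean of 0.402 FPKM and reached the filter of 0.5 FPKM only through its I/R values. Of 23 genes of NF-kB feedback only 5 were tested, and the inhibitor genes Nfkbie (1.39 ± 0.27) and Nfkbib (0.71 ± 0.20) were separated, on 54 and 228 and on 50 and 104 reads. In a list of 32 immediate-early factors 10 were tested, with a median of 0.69, and 4 were separated: Klf6 (0.56 ± 0.09), Myc, Klf4 (0.61 ± 0.17) and Cebpd (0.79 ± 0.28). Egr1 is counted among the 10, with overlapping groups. It had a Sham mean of 0.424 FPKM and reached the filter of 0.5 FPKM only through its I/R values. All these lists had 0 genes with an adjusted p under 0.05 in limma, where the smallest adjusted p of any gene was 0.385.

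**Figure D5:**
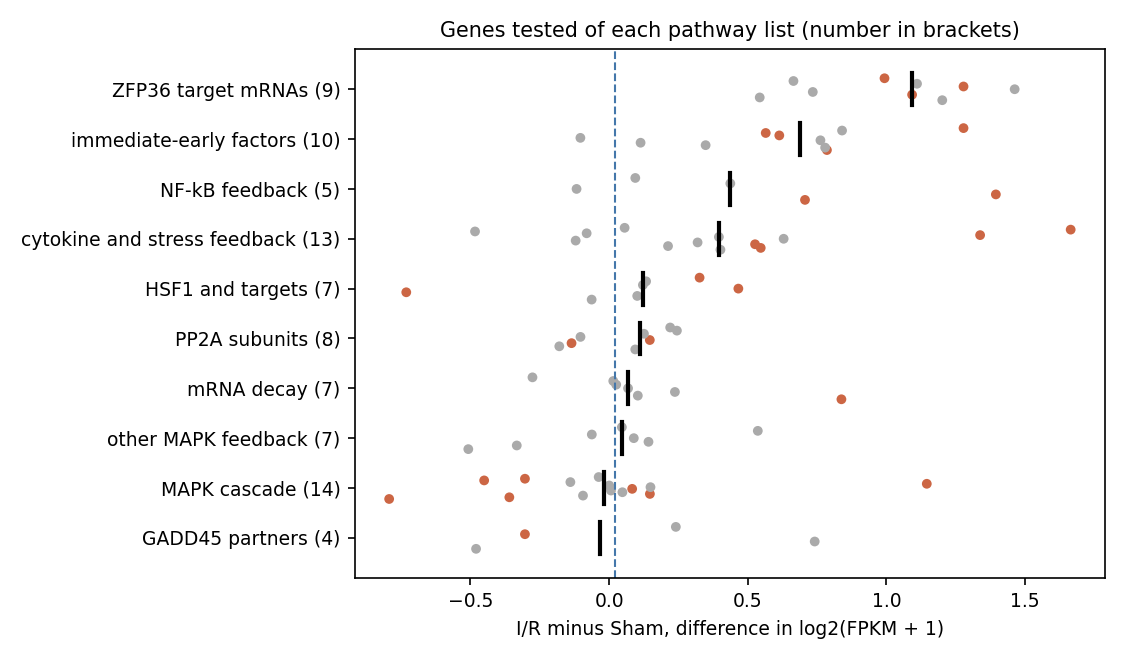
Difference between I/R and Sham in log2(FPKM + 1) (horizontal axis) of each gene tested in 10 pathway lists. Orange points are genes whose groups do not overlap, black bars are list medians, and the dashed line is the median of all protein-coding genes tested (0.02). Medians run from −0.03 for GADD45 partners to 1.09 for ZFP36 target mRNAs.

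The genes with the most similar pattern over the 6 hearts were sought among 2118 protein-coding genes whose mean reached 5 FPKM, by Pearson correlation of log2(FPKM + 1). They were Elmo1 (r = 0.994), Socs3 (0.988) and Gramd3 (0.988) for Zfp36, and Klf4 (0.986), Bambi (0.983) and Bhlhe40 (0.981) for Gadd45b. For Ier3 they were Cyr61 (0.984), Oat (0.970) and Ube2q1 (0.966), and for Ier5 Igfbp6 (0.985), Sh3bp2 (0.970) and Yrdc (0.964). Cyr61, a secreted matrix protein gene, was at 389.9, 726 and 666 FPKM in Sham and 498, 921 and 997 in I/R. As in Ier3, replicate 1 was the lowest of each group. With 6 points and so many genes, correlations of this size are a description only.

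Of the ventricular muscle markers 15 were tested, 4 with a difference above 0 and 11 below, with a median of −0.19. Over all protein-coding genes 54.9% were above 0. In 2 of the 15 all I/R hearts lay below all Sham hearts, beside 5.12% of protein-coding genes. Markers of other cell types gave the following values beside these results. Of 13 macrophage markers 7 were in the table, and they summed to 922 to 1104 FPKM in Sham and 1145 to 1239 in I/R, without overlap. Most of this was Lyz2, whose own groups overlapped (571 to 696 FPKM in Sham and 671 to 782 in I/R). Of the 6 tested, 6 were above 0 and 2 separated upwards, beside 54.9% and 8.83% of protein-coding genes. Fibroblast markers (12 of 13) summed to 627 to 986 and 958 to 1196 FPKM. Of the 10 fibroblast markers tested, 8 were above 0, 2 below and 2 separated upwards, beside those same 54.9% and 8.83%. Endothelial markers (8 of 13) summed to 149 to 161 and 158 to 183 FPKM, and smooth muscle and pericyte markers (6 of 10) to 814 to 1065 and 797 to 1135. Neutrophil markers (6 of 12) summed to at most 1.83 FPKM in Sham and 2.55 in I/R. Among them S100a8 had 1 read in Sham and 0 in I/R, and Il1r2 had 3 and 9. Lymphocyte markers (5 of 11) stayed at or under 1.88 FPKM, and erythroid markers (2 of 6) at or under 6.54. Over the Sham and then the I/R libraries, reads numbered 15 and 0 for the T cell gene Cd3d and 1 and 0 for Cd3g. Cd3e, also a T cell gene, did not share this, at 9 and 10 reads, of which 8 came from I/R replicate 1. No lymphocyte marker reached the level tested. The part of macrophage and fibroblast RNA in the values of Zfp36 and Gadd45b was not tested.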

How the data were processed

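HISAT2 2.1.0, HTSeq 0.10.0, fastp 0.23.0 and bcl2fastq 2.19.1.403 are listed in the submitters' processing notes without roles, with the builds mm10, GRCm38 and GRCm39. No source used here gives the strand setting or the annotation. The authors deposited FPKM for single transcripts. Of 21198 rows, 40 repeated a transcript and were dropped. FPKM were summed per gene name. Reads were recovered from the FPKM steps (whole within 0.001 for 11744 of 11745 protein-coding rows). They are the fewest whole reads that fit, with lengths from 30 bases, and where a gene has few reads they may be a fraction of the true count. Genes whose mean reached 0.5 FPKM were tested with limma 3.58.1 (R 4.3.3) on log2(FPKM + 1), two-sided, with a variance trend and Benjamini-Hochberg adjustment over protein-coding genes and lncRNAs together. The procedure was checked on simulated data. The labels call the hearts biological replicates.

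The members and gene lists were chosen with earlier results of these data known. All members and listed relatives, up to 4 genes with the smallest p per pathway list, the 3 genes most correlated with each named member and up to 2 markers per cell type are named. Il6, Il1b, Egr1 and Cd3e, outside this rule, were named after their values were seen. Promoter windows, from 250 bases before to 50 after RefSeq starts, were found for 13 of 14 members, and Dusp18 had none. The table's spans of the members overlap GRCm38 RefSeq spans by 66.2% to 100%. The test was repeated with other pseudocounts, filters and scalings, without a variance trend, with 1 transcript per gene, with a replicate block, with limma voom on reads and with each heart left out. Python 3.11.15, numpy 2.4.6, pandas 2.3.3 and matplotlib 3.10.9 were used.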

Additional observations from a re-analysis of the deposited data

How the results depend on the processing

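Under 17 alternatives, 11 of which kept all hearts, 0 genes passed an adjusted p of 0.05. Zfp36 and Gadd45b kept a higher value in I/R in all of them, with an unadjusted limma p from 0.00244 to 0.0363 and from 0.00104 to 0.0323, and an adjusted p from 0.293 to 0.711 and from 0.247 to 0.708. Ier3 kept its direction (0.18 to 0.98 with a heart left out, 0.51 to 0.57 otherwise). Ier5 ranged from −0.13 to 0.24 with a heart left out and was −0.11 without I/R replicate 3. Other signs that turned were those of Dusp23 (−0.0084 with median-ratio scaling, −0.02 without Sham replicate 1, and −0.05 to 0.08 with a heart left out), Dusp3 (−0.02 to 0.20), Dusp4 (−0.07 to 0.42) and Gadd45a (−0.0041 without Sham replicate 1, and −0.18 to 0.23). The cause was not tested. The number of genes with an unadjusted p under 0.05, 1023, was 640 with a filter at 5 FPKM and 455 among protein-coding genes alone, where fewer genes were tested, and 808 to 1191 with a heart left out.

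Among same-numbered hearts, the correlation of deviations across genes was 0.153 for number 1 and 0.0283 and 0.0287 for numbers 2 and 3. Between differently numbered hearts it ran from −0.136 to 0.111, so the numbers were not taken to pair the hearts. With a replicate block, 1125 genes had an unadjusted p under 0.05 and 0 an adjusted one. In that fit the unadjusted p of Ier3 was 0.015, of Gadd45b 0.0027 and of Zfp36 0.01, with differences of 0.54, 1.03 and 0.99. Ier5 differed by 0.05. With 3 hearts per group, precision is set by the spread between hearts, and for Dusp1, Dusp7, Dusp13 and Dusp14 by their few reads.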

Other observations

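Beside Gm44710 at Zfp36, 2 further lncRNAs are annotated within 10 kb of a member, both on the opposite strand and overlapping it. Gm20659 (chromosome 11, 101971143 to 101971859) lies within Dusp3 and was at 771, 940.4 and 841 FPKM in Sham and 890.2, 792 and 742 in I/R (−0.07 ± 0.11). Gm15935 lies within Dusp13 and had 13 reads in all Sham libraries and 12 in those of I/R (0.09 ± 0.34). Neither had groups that separated.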
